A study of Mus musculus with 18 samples.

Results

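The small leucine-rich proteoglycans are secreted matrix proteins built from repeats rich in leucine, and 10 of their genes were followed here through RNA-seq of whole mouse aorta: decorin (Dcn), biglycan (Bgn), lumican (Lum), fibromodulin (Fmod), osteomodulin (Omd), osteoglycin or mimecan (Ogn), Prelp, asporin (Aspn), chondroadherin (Chad) and epiphycan (Epyc). The members were chosen by symbol, and the 10 are among 54281 genes of the deposited count table. All mice were male C57BL/6, and the tissue was the descending aorta with its intimal, medial and adventitial layers, flushed and cleaned before RNA extraction. There were 3 groups of 6: young HGPS mice (2 mo, genotype label LMNAG609G), young WT mice (2 mo) and aged WT mice (24 mo). HGPS mice carry a knock-in point mutation in both copies of the endogenous Lmna gene and make progerin, the truncated lamin A of Hutchinson-Gilford progeria syndrome, in every cell that expresses the gene. WT mice for aging came from a supplier, and HGPS mice descend from a colony of carriers with 1 mutant copy; whether the young WT mice were littermates of the HGPS mice is not given in the sources used here. By their labels, ages ran from 64 to 75 d in HGPS and from 609 to 762 d in aged WT, and young WT held 5 mice of 62 d and 1 of 95 d (replicate 6).

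In the extracellular matrix, most of these proteins bind collagen fibrils and control how thick and how evenly spaced the fibrils become. Class I members (Dcn, Bgn) carry chondroitin or dermatan sulfate chains and class II members (Lum, Fmod, Prelp, Omd) keratan sulfate or none, and several members also bind TGF-beta or BMP ligands and cell surface receptors. In the artery wall, decorin is known mostly as a product of adventitial fibroblasts and biglycan as a product of both smooth muscle cells and fibroblasts.

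Totals were 12413229 to 30844775 estimated counts per mouse, and 15210 genes had at least 10 counts in at least 6 mice and were tested. Levels are given as CPM, counts relative to the TMM-scaled library size, and a change is a log2 fold change from edgeR with its standard error. A gene is said to have risen or fallen where the adjusted p was under 0.05, and to have passed the cut-offs of the study where the change was also at least 1.5-fold with an adjusted p under 0.001. The 24-mo WT mouse of replicate 1 stood apart, with a median correlation of 0.967 with its group where all other mice had 0.972 to 0.983. The members' changes and most counts and within-mouse ratios of that group are therefore given with and without it. Lmna itself had a log2 change of 0.47 in HGPS against 2-mo WT (adjusted p = 0.00383, edgeR). The count table does not separate progerin from other lamin transcripts, so this is no check of the genotype.

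The genes lie in 3 clusters and 2 single positions on GRCm38 (GENCODE M21). On chromosome 13, Aspn (chr13:49544443-49567565), Omd (chr13:49582462-49592822) and Ogn (chr13:49608046-49624501) stand in that order on the plus strand, inside the span of Cenpp on the other strand, with gaps of 14896 and 15223 bases between them. On chromosome 10, Dcn (chr10:97479609-97518143), Lum (chr10:97565128-97572703) and Epyc (chr10:97644068-97682454) follow each other on the plus strand. Prelp (chr1:133910304-133921414, minus strand) and Fmod (chr1:134037254-134048277, plus strand) are neighbours on chromosome 1. Bgn (X:73483602-73495933) and Chad (chr11:94565047-94569127) have no other member nearby. Chad lies within the span of Acsf2 on the other strand without a shared exon base, and the antisense transcripts that share exon bases with Prelp (Gm15851, 350 bases) and Epyc (Gm10754, 1041 bases) had 0 counts in all mice.

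Because the neighbours Aspn, Omd and Ogn went in different directions in HGPS aortas, the 250 bases before each start site are shown, from RefSeq on GRCm38.p6, plus strand, 5′ to 3′. Capitals mark exact matches on either strand to 7 short motifs: the TATA box as TATAAA, the CCAAT box by its name, the GC box as GGGCGG, the AP-1 motif as TGANTCA, the TEAD motif as GGAATG, the RUNX motif as TGTGGT and the SMAD motif as CAGACA. Matches can overlap.
Aspn, chr13:49544193-49544442: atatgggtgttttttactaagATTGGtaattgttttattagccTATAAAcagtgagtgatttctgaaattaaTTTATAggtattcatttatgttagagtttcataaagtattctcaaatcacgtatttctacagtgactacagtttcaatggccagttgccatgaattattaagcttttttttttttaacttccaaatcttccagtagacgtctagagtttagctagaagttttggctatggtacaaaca
Omd, chr13:49582212-49582461: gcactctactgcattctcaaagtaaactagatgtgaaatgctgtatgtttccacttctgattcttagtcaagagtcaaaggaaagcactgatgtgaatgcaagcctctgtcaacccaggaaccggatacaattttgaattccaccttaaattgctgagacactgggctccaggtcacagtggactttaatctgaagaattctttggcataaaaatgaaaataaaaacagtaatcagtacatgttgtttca
Ogn, chr13:49607765-49608014: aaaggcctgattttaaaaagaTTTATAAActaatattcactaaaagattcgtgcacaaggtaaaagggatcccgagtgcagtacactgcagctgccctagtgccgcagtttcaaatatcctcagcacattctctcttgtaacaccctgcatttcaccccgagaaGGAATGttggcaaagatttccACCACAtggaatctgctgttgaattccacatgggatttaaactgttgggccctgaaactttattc

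These windows had GC contents of 30% (Aspn), 38.4% (Omd) and 42% (Ogn), below the median of 52.4% over 32851 promoters of this length. The Aspn window held TATAAA on the plus strand at -207 and on the minus strand ending at -173, and CCAAT on the minus strand, counted back from the start site. In the Ogn window were TATAAA on both strands in an overlapping run that starts at -229, GGAATG at -86 and TGTGGT on the minus strand at -65. The Omd window held none of the 7 motifs. Of all promoters, 12.4% held TATAAA, 33.8% CCAAT, 32.7% GGGCGG, 6.75% TGANTCA, 12.6% GGAATG, 14% TGTGGT and 17.1% CAGACA. The Chad window had 60.4% GC, with TATAAA at -28 and GGGCGG at -108, and the Bgn window 64.4% GC with 3 minus-strand GGGCGG matches. A match is a run of letters and not a shown binding site. RefSeq windows were found for 8 of the 10 members, and Dcn and Lum were not among them.

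Per length of the gene's exons (TPM), the family in 2-mo WT aorta was led by Ogn, with a mean of 1644 ± 248.4 TPM (SD, n = 6), place 47 among all genes. Bgn followed at 892.4 ± 89.21 TPM and Dcn at 734.4 ± 70.49 TPM, and those overlapped between mice. Prelp came next (271.1 TPM), then Lum (182.8 TPM), Fmod (143.4 TPM) and Aspn (100.8 TPM), of which Lum and Fmod, and Fmod and Aspn, overlapped. Omd was lower (39.62 TPM), and Epyc (0.4603 TPM) and Chad (0.3026 TPM) were close to absent and overlapped. The order of the first 3 depends on the length used. With the length of the transcript of the longest coding sequence, Dcn led at 1913 TPM, ahead of Bgn at 1765 TPM and Ogn at 1289 TPM.

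The makeup of the family is given as shares of the members' summed TPM, with no test, since shares of one sum move against each other. On exon length, Ogn made up a mean of 40.9% ± 1.42 in 2-mo WT, 29.9% ± 4.39 in HGPS and 37% ± 3.55 in 24-mo WT (SD, n = 6). Bgn made up 22.3% ± 0.979, 31.3% ± 3.54 and 24.6% ± 4.74, and Dcn 18.4% ± 0.733, 15.7% ± 1.03 and 20.3% ± 2.21. Aspn, a small share throughout, was at 2.51% ± 0.24, 5.29% ± 1.28 and 2.46% ± 0.344. On the length of the longest coding transcript, Ogn made up 23.1%, 16.3% and 20.1%, Bgn 31.8%, 42.7% and 33.5%, Dcn 34.5%, 28.3% and 36.6%, and Aspn 1.43%, 2.91% and 1.35%, so each of these 4 stood on the same side of 2-mo WT in HGPS on both lengths. Summed over the 10 genes on exon length, the level was 4010 ± 480.5 TPM in 2-mo WT, 3140 ± 729.3 TPM in HGPS and 4414 ± 457.3 TPM in 24-mo WT, with HGPS mice from 2426 to 4410 TPM and 2-mo WT mice from 3589 to 4719 TPM, so these sums overlapped.

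**Figure D1:**
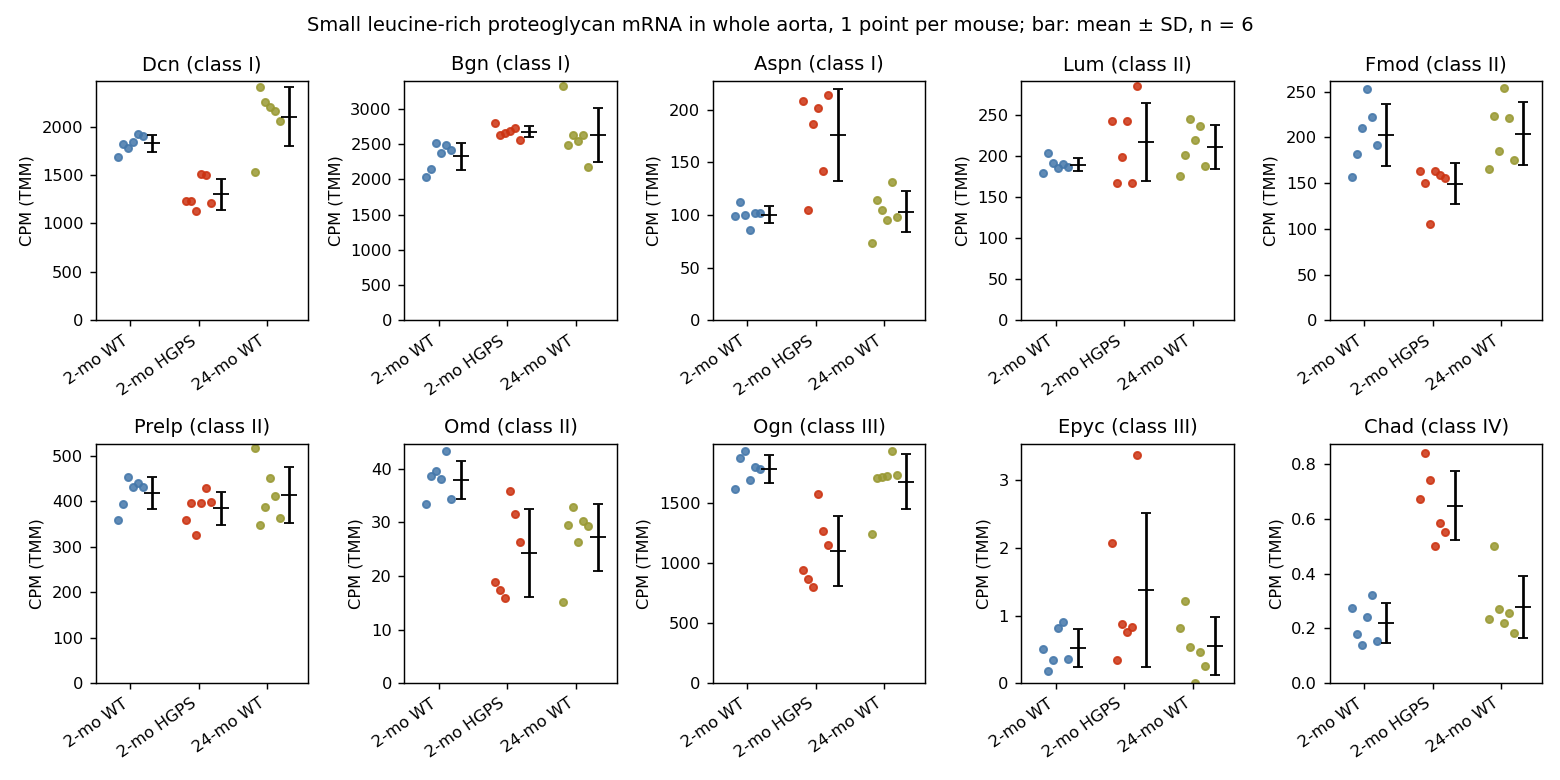
Level of each of the 10 genes in CPM (linear axis from 0), 1 point per mouse, with the mean and SD of each group of 6. Dcn and Ogn in HGPS lie wholly below 2-mo WT, Bgn and Chad wholly above, and 5 of the 6 HGPS mice lie above every 2-mo WT mouse for Aspn.

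The first comparison, HGPS against WT at 2 mo, asks how the family differs between the genotypes in young arteries. The genes that fell were Dcn, Ogn, Omd and Fmod, and those that rose were Aspn and Chad. The other 4, Bgn, Lum, Prelp and Epyc, did not pass an adjusted p of 0.05. This makes 6 of 10 at that threshold, beside 43.2% of all genes tested, of which 2 were higher (22% of all genes) and 4 lower (21.2%). At the cut-offs of the study 3 of 10 were called, Aspn and Chad upward and Ogn downward, beside 9.5% of all genes (5.27% upward and 4.23% downward). In 4 of 10, Bgn, Chad, Dcn and Ogn, the 6 HGPS mice did not overlap the 6 WT mice, beside 21.9% of all genes. Chad entered the tests only through its HGPS counts, and without it the numbers were 5 of 9 (1 higher and 4 lower), 2 of 9 and 3 of 9. The median change was 0.04 for the members and 0.0026 for all genes, so the family had no shared direction. Fewer cells of a type and less RNA per cell cannot be told apart in whole aorta.

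**Figure D2:**
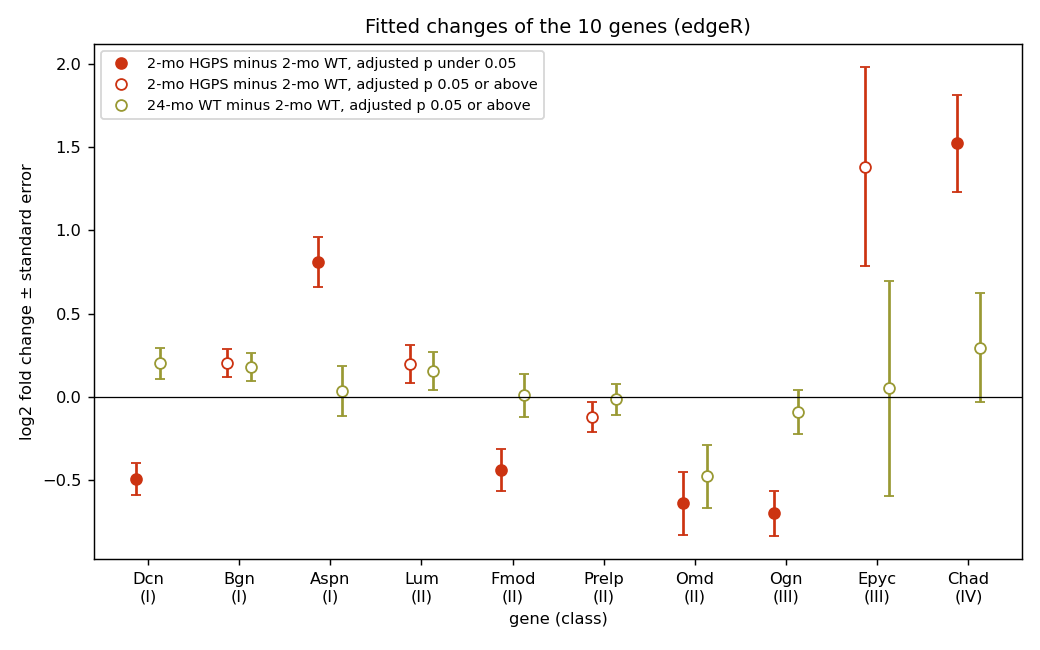
Log2 fold change of each gene with its standard error from edgeR, for HGPS against 2-mo WT and for 24-mo against 2-mo WT. Filled points have an adjusted p under 0.05, which are Dcn, Fmod, Omd and Ogn below 0 and Aspn and Chad above 0, all in the HGPS comparison.

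Among class I members, Dcn, a regulator of collagen fibril growth that also binds TGF-beta, ran from 1689 through a median of 1830 to 1922 CPM in 2-mo WT and from 1124 through 1230 to 1506 CPM in HGPS. Every HGPS mouse was below every WT mouse. The log2 change was -0.49 ± 0.0946 (SE, adjusted p = 0.000402), or 0.711 of the WT level, which is short of a 1.5-fold change. Bgn, its closest relative, went the other way in the same mice. It ran from 2031 through 2388 to 2512 CPM in 2-mo WT and from 2559 through 2671 to 2795 CPM in HGPS. The groups did not overlap, yet the change was small, at 0.20 ± 0.0816, and its adjusted p of 0.0504 missed the threshold. Under 8 of 28 alternative settings Bgn passed it, among them DESeq2 (adjusted p = 0.0275), and the range over all 28 was 0.0136 to 0.356.

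As counts within one mouse, which do not depend on scaling between libraries, Bgn per Dcn was 1.18 to 1.41 in 2-mo WT and 1.78 to 2.36 in HGPS. In 24-mo WT it was 1.03 to 2.17, with a median of 1.16. The highest of these was replicate 1, whose Dcn of 1534 CPM was the lowest and whose Bgn of 3326 CPM was the highest of its group. The other 5 ran from 1.03 to 1.21.

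Aspn, a class I protein without the usual glycosaminoglycan attachment site, binds collagen and TGF-beta. In 2-mo WT it ran from 86.25 through 101.2 to 112.6 CPM and in HGPS from 104.9 through 194.2 to 213.9 CPM. 5 HGPS mice stood above all WT mice, and the other, replicate 2 at 104.9 CPM, lay among them. The rise was 0.81 ± 0.151 on the log2 scale (adjusted p = 0.000296), or 1.75-fold. At the cut-offs it was no longer called without HGPS replicate 1 or without 2-mo WT replicate 4, though its adjusted p stayed under 0.05 without any single mouse.

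Of the class II members, Fmod and Omd fell and Lum and Prelp did not pass the threshold. Fmod, which binds collagen I and modulates its crosslinking by lysyl oxidase, ran from 156.5 through 201.2 to 252.6 CPM in 2-mo WT and from 104.9 through 157.5 to 163.1 CPM in HGPS. The ranges overlapped only through the WT mouse at 156.5 CPM, and the change was -0.44 ± 0.127 (adjusted p = 0.00915). Omd, a keratan sulfate proteoglycan first known from bone, ran from 33.42 through 38.38 to 43.26 CPM in 2-mo WT and from 15.82 through 22.56 to 35.82 CPM in HGPS. It fell by 0.64 on the log2 scale (SE 0.189, adjusted p = 0.0105), and 5 of the 6 HGPS mice were below all WT mice. For Lum, a keratan sulfate proteoglycan of fine collagen fibrils, the 2-mo WT mice lay close together (179.5 to 203.9 CPM) and the HGPS mice spread on both sides of them (166.9 to 285.7 CPM), with a change of 0.20 ± 0.116 (adjusted p = 0.18). Prelp, which links collagen to heparan sulfate, had 358.2 to 453.8 CPM in 2-mo WT and 327.2 to 430.5 CPM in HGPS (change -0.12 ± 0.0915, adjusted p = 0.313).

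Class III held the largest fall. Ogn, a keratan sulfate proteoglycan of many connective tissues, ran from 1624 through 1798 to 1942 CPM in 2-mo WT and from 802.3 through 1051 to 1577 CPM in HGPS. No HGPS mouse reached the WT range, and replicate 4 at 1577 CPM came nearest. The change was -0.70 ± 0.135 (adjusted p = 0.000432), or 0.617 of the WT level. Its adjusted p passed 0.001 only narrowly: without HGPS replicate 1, 2 or 3 or without 2-mo WT replicate 2, 3 or 6 it was not called at the cut-offs. Epyc, a cartilage proteoglycan, was at 0.1777 to 0.909 CPM in 2-mo WT and at 0.3359 to 3.372 CPM in HGPS, where 2 mice (2.075 and 3.372 CPM) stood above the other 4. The change of 1.38 ± 0.595 had an adjusted p of 0.0675. It passed 0.05 in 4 of 27 alternative settings, among them DESeq2 (adjusted p = 0.0432) and a fit of the 2 groups alone (adjusted p = 0.0451), and the range over the 27 was 0.0356 to 0.575.

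Chad, the class IV member, binds collagen II and integrins in cartilage. It had 2 to 6 counts per mouse in 2-mo WT, 11 to 20 in HGPS and 3 to 7 in 24-mo WT, or 0.1397 to 0.3208, 0.5001 to 0.8398 and 0.1849 to 0.5022 CPM. The HGPS mice did not overlap the 2-mo WT mice, and the lowest of them (0.5001 CPM) lay just below the highest 24-mo WT mouse (0.5022 CPM). The fitted change against 2-mo WT was 1.52 ± 0.291 (adjusted p = 0.000373). Chad passed the count filter only through the 6 HGPS mice and had to differ, and without any 1 of them it was not tested.

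At the chromosome 13 cluster, the opposite directions of neighbours stood within single mice. Aspn per Ogn was 0.0508 to 0.0612 in 2-mo WT, 0.111 to 0.232 in HGPS and 0.0551 to 0.0677 in 24-mo WT, so the lowest HGPS ratio lay above the highest of both WT groups. Omd per Ogn, in contrast, was 0.0192 to 0.0239 in 2-mo WT and 0.0197 to 0.0248 in HGPS, nearly the same ranges. Of the genes next to the cluster, Ecm2, a relative of the class I members that lies before Aspn, fell (log2 change -0.67, adjusted p = 1.35e-05), and Nol8, a nucleolar protein gene after Ogn, rose (0.45, adjusted p = 0.000641). Cenpp, a kinetochore gene whose span holds the cluster, was at 0.341 CPM in 2-mo WT and 0.572 CPM in HGPS and did not pass (adjusted p = 0.178).

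At the other clusters, Optc (opticin), a relative next to Prelp, had the largest fall of the neighbours, -1.20 (adjusted p = 2.15e-05), from a mean of 50.2 CPM in 2-mo WT to 21.7 CPM in HGPS. The nearest outer neighbours of Dcn and Fmod were the antiproliferative genes Btg1, as far as 856799 bases away, and Btg2, 26892 bases away. These changed by -0.21 (adjusted p = 0.283) and -0.28 (adjusted p = 0.406). Kera (keratocan), between Lum and Epyc, was not tested, with a mean of 0 CPM in 2-mo WT and 0.014 CPM in HGPS. Ccer1, beside Epyc, was not tested either, with means of 0 CPM in 2-mo WT and 0.00935 CPM in HGPS. Beside Bgn, Haus7 changed by 0.19 (adjusted p = 0.101), and Atp2b3 was not tested (means of 0 and 0.14 CPM). On either side of Chad, Lrrc59 rose (0.43, adjusted p = 0.000461) and Rsad1 fell (-0.55, adjusted p = 0.00109), while Acsf2, whose span holds Chad, rose (0.66, adjusted p = 0.0196). Lum per Dcn, for neighbours on chromosome 10, was 0.0983 to 0.112 in 2-mo WT and 0.111 to 0.236 in HGPS.

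**Figure D3:**
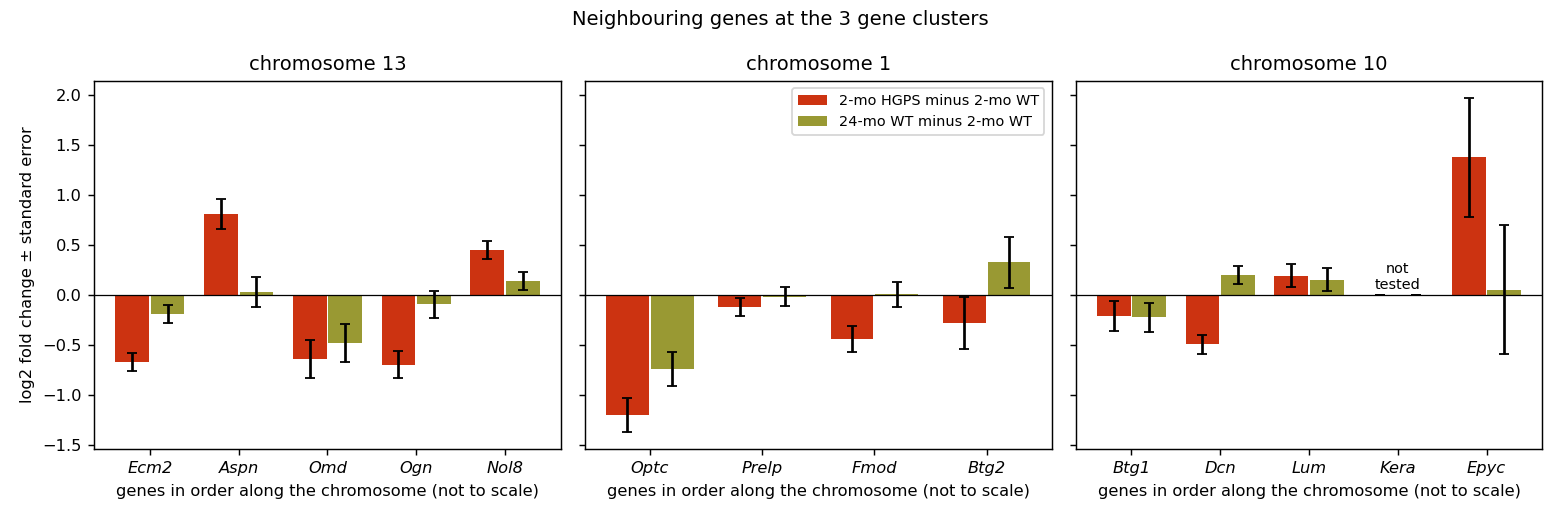
Log2 fold change and standard error of genes in their order along chromosomes 13, 1 and 10 (not to scale), for HGPS against 2-mo WT and 24-mo against 2-mo WT. In HGPS, Aspn at 0.81 stands between Ecm2 at -0.67 and Omd at -0.64, and Ogn next to them is at -0.70.

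Markers of other cell types moved with the HGPS group. Beside all counts of called markers in HGPS stand 43.2% of all genes tested, in either direction. All 8 brown fat markers were higher in HGPS than in 2-mo WT, with summed levels of 460 to 1700 CPM in HGPS, 108 to 601 CPM in 2-mo WT and 119 to 380 CPM in 24-mo WT, and none of the 8 was at 0 in a group. Of 7 white fat markers 6 were higher (577 to 2490 CPM in HGPS, 205 to 802 CPM in 2-mo WT), as were 8 of 8 macrophage markers (593 to 891 against 325 to 488 CPM) and 6 of 6 cell cycle genes (31.2 to 55.5 against 9.17 to 15.9 CPM). Of 10 fibroblast markers 5 were lower (1430 to 1940 against 1900 to 2340 CPM), and of 9 smooth muscle markers 6 were lower (20200 to 28100 against 30600 to 39200 CPM). Endothelial markers had 0 of 8 called by edgeR (956 to 1310 against 612 to 1480 CPM). Skeletal muscle markers had 2 higher and 1 lower of 4 tested (3.66 to 6.34 against 3.07 to 4.79 CPM) and nerve markers 2 higher and 2 lower of 5 tested (180 to 209 against 194 to 252 CPM). Mesothelial markers had 0 of 5 called (13.1 to 33.5 against 3.02 to 42.1 CPM) and blood markers 0 of 4 (511 to 4850 against 505 to 5910 CPM), and of these 3 lists 0 genes had an unadjusted p under 0.05 in edgeR. Across coding genes, the slope of a mouse's log2 CPM deviation on log2 transcript length was -0.161 to -0.00595 in HGPS, -0.0399 to 0.0533 in 2-mo WT and 0.0114 to 0.121 in 24-mo WT. The part of macrophage, white fat, smooth muscle and cell cycle RNA and of the length slope in the members' changes was not tested.

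Within HGPS, the mice with the least fat RNA stood apart in Dcn and Ogn, and the order among the other 4 was not strict. The HGPS mice with the least brown fat RNA, replicates 4 and 5 at 459.9 and 508.7 CPM, had the highest Dcn (1506 and 1498 CPM) and the highest Ogn (1577 and 1273 CPM). Replicates 3 and 2, with the most at 1364 and 1704 CPM, had Ogn at 802.3 and 866.2 CPM and Dcn at 1124 and 1228 CPM, where replicates 1 and 6, between these in brown fat RNA, had Dcn at 1232 and 1209 CPM. White fat RNA was highest in replicate 6, at 2488 CPM, whose Ogn of 1156 CPM and Omd of 26.27 CPM were the third highest of the 6. By the column labels, HGPS replicates 1 to 3 have lower sample numbers than replicates 4 to 6, with a gap between. In that gap lie the numbers of 24-mo WT and then those of 2-mo WT, each group in a run of its own. In every comparison, runs of sample numbers and groups therefore cannot be told apart. Omd was at 15.82 to 18.84 CPM in HGPS replicates 1 to 3 and 26.27 to 35.82 CPM in replicates 4 to 6. Ogn was at 802.3 to 946.6 and 1156 to 1577 CPM, while Dcn overlapped (1124 to 1232 and 1209 to 1506 CPM). What the sample numbers stand for is not given, and their part was not tested. With 6 mice all this was left as a description. With scores of brown fat and skeletal muscle markers in the fit, the changes against 2-mo WT were -0.21 for Dcn (adjusted p = 0.328), -0.32 for Ogn (adjusted p = 0.285), -0.19 for Omd (adjusted p = 0.681) and -0.15 for Fmod (adjusted p = 0.635). Aspn alone of the 10 still passed 0.05 in that fit, at 1.04 (adjusted p = 0.0135), and Chad had 1.37 (adjusted p = 0.0775). With a fibroblast marker score instead, none of the 10 passed. Dcn had -0.43 ± 0.161 (SE, adjusted p = 0.0872), Ogn -0.59 ± 0.229 (adjusted p = 0.0949) and Aspn 0.73 ± 0.264 (adjusted p = 0.0762). Without the score these were -0.49 ± 0.0946, -0.70 ± 0.135 and 0.81 ± 0.151, with smaller standard errors. Other members moved more with the score: Fmod from -0.44 to -0.30, Bgn from 0.20 to 0.345 and Prelp from -0.12 to 0.11. The part of fibroblast RNA in these changes was not tested. The share of all genes passing 0.05 also dropped in these fits, from 6567 genes to 2301 and 1810. Markers in each score differ between HGPS and 2-mo WT, so these fits cannot separate marker RNA from genotype. The skeletal muscle score rests on 4 tested markers of low level, of which 2 were higher and 1 lower in HGPS.

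**Figure D4:**
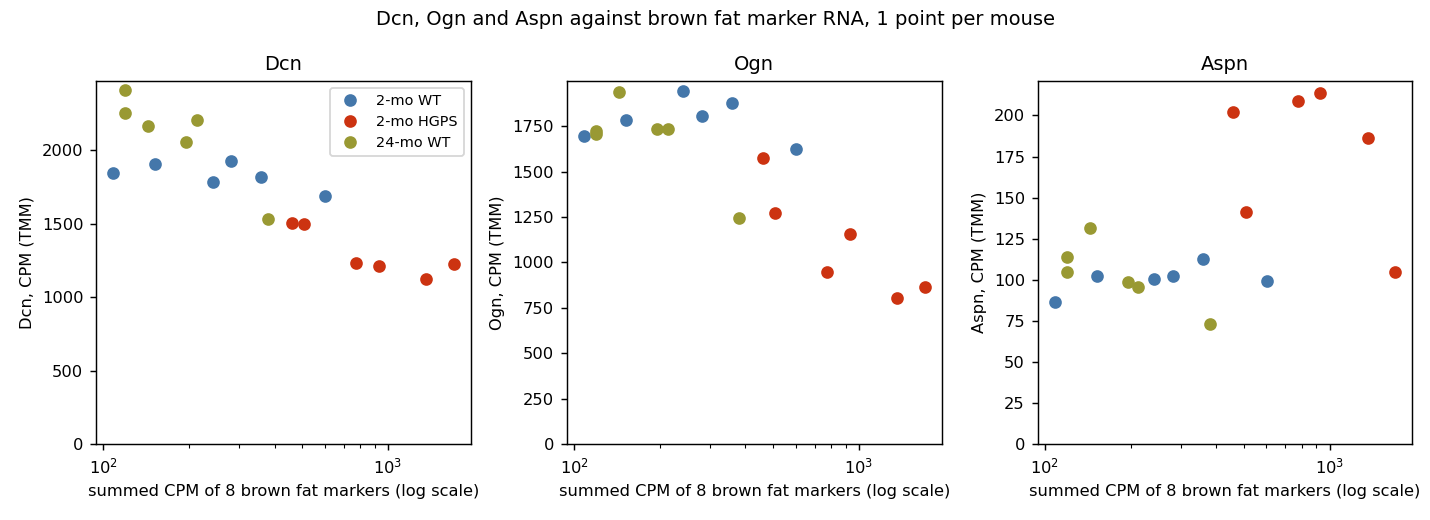
CPM of Dcn, Ogn and Aspn (linear axes from 0) against the summed CPM of 8 brown fat markers (log axis), 1 point per mouse, coloured by group. HGPS mice run from 459.9 to 1704 CPM on the marker axis. The HGPS mouse with the least has 1506 CPM of Dcn and 1577 CPM of Ogn, and the one with the most has 1228 CPM of Dcn, 866.2 CPM of Ogn and the lowest Aspn of its group, 104.9 CPM.

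Dcn and Bgn were also set against the summed counts of markers of a known source in the same mouse, fibroblasts for Dcn and smooth muscle for Bgn. Bgn was not set against fibroblasts, its other source. The 24-mo ranges here include replicate 1. Dcn per count of the 10 fibroblast markers was 0.82 to 0.97 in 2-mo WT, 0.696 to 0.858 in HGPS and 0.988 to 1.63 in 24-mo WT, so HGPS overlapped 2-mo WT and lay partly below it. Set against each of the 10 markers alone, the median ratio of HGPS was 0.607 to 1.44 times that of 2-mo WT and was higher for 6 of the 10, so its direction depends on the marker taken. Bgn per count of the 9 smooth muscle markers was 0.0572 to 0.0741 in 2-mo WT, 0.097 to 0.127 in HGPS and 0.0615 to 0.0961 in 24-mo WT, with every HGPS mouse above all others. Against single smooth muscle markers, the HGPS median was 1.01 to 2.75 times that of 2-mo WT. Of these 9 markers 6 were themselves lower in HGPS, which raises the ratio without a change of Bgn.

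For the cartilage genes Chad and Epyc, the 11 cartilage markers summed to 121 to 233 CPM in HGPS and 84 to 122 CPM in 2-mo WT, with 3 higher and 1 lower of 7 tested. The defining collagen of cartilage, Col2a1, was at 0 to 0.155 CPM in 2-mo WT and 0 to 0.232 CPM in HGPS, near 0 in both. Of the tendon markers 1 of 3 tested was higher and 1 lower (sums of 13.3 to 35.6 against 6.99 to 12 CPM), and of the bone markers 1 of 3 was higher and 1 lower (11.5 to 13.8 against 14.4 to 22.2 CPM). With a cartilage score in the fit, Epyc had a change of 0.54 (adjusted p = 0.482) and Chad 1.63 (adjusted p = 0.000577). The value for Chad is no support, since Chad passed the count filter only through the HGPS mice and had to differ.

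The second comparison, 24-mo against 2-mo WT, asks how the family differs with natural aging. Of the 10 genes 0 passed an adjusted p of 0.05 in edgeR, beside 11.7% of all genes tested, and 0 passed the cut-offs, beside 2%. DESeq2 also called 0 at 0.05. At an unadjusted p under 0.05 there were 3, Dcn, Bgn and Omd. Of the 10, Omd alone did not overlap between the ages, and was lower, beside 6.28% of all genes in either direction and 3.08% lower. The medians were 0.04 for the members and 0.0083 for all genes. In the same mice 5 of 10 fibroblast markers were lower at 24 mo (1260 to 1640 CPM). Markers higher at 24 mo were 1 of 9 for smooth muscle, 1 of 7 for white fat, 1 of 4 tested for skeletal muscle, 3 of 7 tested for cartilage, 2 of 3 tested each for bone and tendon, and 1 of 5 tested for mesothelium, and nerve had 3 higher and 1 lower of 5 tested. In edgeR 0 were called for endothelium, macrophages, brown fat, blood or the cell cycle, with 1 macrophage and 1 brown fat marker at an unadjusted p under 0.05 and 0 of the others. Without 24-mo replicate 1 the marker counts that differed were 4 of 10 lower for fibroblasts, 2 higher for nerve, 1 higher for tendon, and 3 of 6 and 1 of 3 tested for cartilage and skeletal muscle. With the fibroblast score in the fit, none of the 10 members passed either, beside only 147 of all 15210 genes tested.

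Dcn in 24-mo WT ran from 1534 through 2184 to 2405 CPM, and 5 of the 6 mice were above all 2-mo WT mice. Its change was 0.20 ± 0.0944 (adjusted p = 0.186), and without the 24-mo mouse of replicate 1 it was 0.28 with an adjusted p of 0.0221. Omd ran from 15.18 through 29.38 to 32.87 CPM, each mouse below the lowest 2-mo WT mouse at 33.42 CPM. The change was -0.48 ± 0.19 (adjusted p = 0.114), and -0.35 without replicate 1 (adjusted p = 0.201). Bgn, at 2172 to 3326 CPM, changed by 0.18 ± 0.0816 (adjusted p = 0.172), and by 0.10 without replicate 1 (adjusted p = 0.37).

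The remaining members overlapped the young mice. Ogn ran from 1246 through 1728 to 1941 CPM (change -0.09, adjusted p = 0.737), Aspn from 73.36 to 131.4 CPM (0.03, adjusted p = 0.919), and Fmod from 165.4 to 254 CPM (0.01, adjusted p = 0.973). Lum had 176.4 to 245.9 CPM (0.16, adjusted p = 0.44), and Prelp 349.2 to 517.6 CPM (-0.01, adjusted p = 0.95). Chad and Epyc, at 0.1849 to 0.5022 and 0 to 1.22 CPM, had adjusted p of 0.723 and 0.971. Omd per Ogn did not overlap between the ages, at 0.0122 to 0.0191 in 24-mo WT against 0.0192 to 0.0239 in 2-mo WT, and ran from 0.0152 to 0.0191 without replicate 1. Without that mouse the remaining changes were -0.02 for Ogn, 0.12 for Aspn, 0.06 for Fmod, 0.20 for Lum, -0.09 for Prelp, 0.33 for Chad and -0.11 for Epyc, with adjusted p from 0.302 to 0.956.

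HGPS against 24-mo WT tests the difference between the change in HGPS and the change with age, and in it genotype and age differ together. 5 of 10 passed 0.05, beside 47.3% of all genes, and 2 passed the cut-offs, Aspn upward and Dcn downward, beside 12.1% (6.02% upward and 6.11% downward). Dcn and Fmod did not overlap, beside 22.2%. Without Chad, which was tested only through the HGPS mice, 4 of 9 passed 0.05 and 2 of 9 the cut-offs. The change was -0.69 ± 0.0948 for Dcn (adjusted p = 9.41e-06), -0.61 ± 0.135 for Ogn (adjusted p = 0.00114), -0.45 ± 0.127 for Fmod (adjusted p = 0.007), 0.78 ± 0.151 for Aspn (adjusted p = 0.00033) and 1.23 ± 0.283 for Chad (adjusted p = 0.0015). Omd, lower than 2-mo WT in both groups by its values, changed by -0.16 (adjusted p = 0.508). With the fat and muscle scores in the fit, Fmod had -0.10 (adjusted p = 0.698), Ogn -0.29 (adjusted p = 0.254) and Chad 0.89 (adjusted p = 0.286). Dcn and Aspn still passed, beside 3843 of 15210 genes. Here too the fit cannot separate marker RNA from the groups. Without 24-mo replicate 1, 5 members still passed 0.05 and 3 the cut-offs, with changes of -0.77 for Dcn (adjusted p = 3.42e-07), -0.68 for Ogn (adjusted p = 0.000347), -0.50 for Fmod (adjusted p = 0.00367), 0.69 for Aspn (adjusted p = 0.000834) and 1.19 for Chad (adjusted p = 0.00356).

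Of 10 genes of collagens that these proteins coat, 8 fell at 24 mo and none rose, beside 11.7% of all genes passing in either direction, with a median of -0.63, led by Col3a1 (-1.66, adjusted p = 2.59e-07), Col5a2 (-0.98, adjusted p = 4.11e-07) and Col1a2 (-0.95, adjusted p = 0.000141). In HGPS 4 of the 10 fell and 2 rose, beside 43.2% of all genes, with a median of -0.29. Without 24-mo replicate 1, 9 of the 10 fell with age. In HGPS against 2-mo WT, Col12a1, a collagen on the surface of fibrils, rose (1.18, adjusted p = 0.000831). In that same comparison Col14a1 (-0.67, adjusted p = 9.34e-05) and Col6a1 (-0.60, adjusted p = 6.66e-05) fell.

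Dcn per count of Col1a1, Col1a2 and Col3a1 put these side by side in each mouse. It was 0.113 to 0.157 in 2-mo WT, 0.0748 to 0.145 in HGPS and 0.229 to 0.525 in 24-mo WT. Every aged aorta held more Dcn RNA per fibrillar collagen RNA than any young one, with a mean of 0.382 ± 0.118 against 0.131 ± 0.0147 (SD, n = 6), while HGPS overlapped 2-mo WT. Replicate 1 had the lowest ratio of the aged mice, and the other 5 ran from 0.283 to 0.525. Bgn per the same collagens was 0.146 to 0.199 in 2-mo WT, 0.158 to 0.326 in HGPS and 0.327 to 0.613 in 24-mo WT, the last range being the same without replicate 1.

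**Figure D5:**
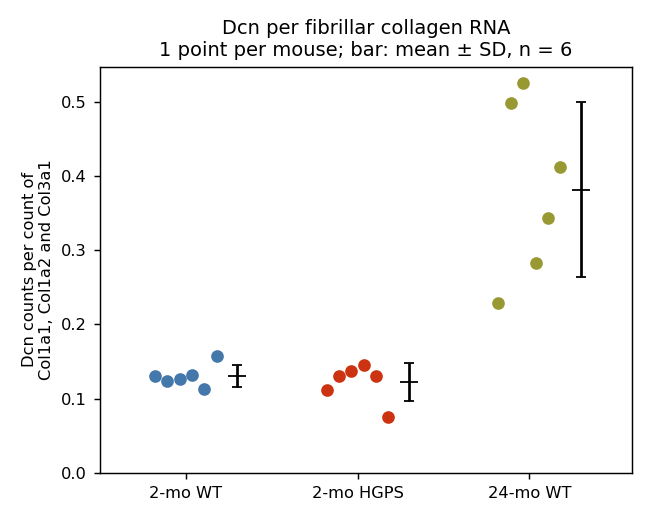
Dcn counts per count of Col1a1, Col1a2 and Col3a1 (linear axis from 0), 1 point per mouse, with the mean and SD of each group of 6. The 24-mo WT mice run from 0.229 to 0.525, above all young mice, and HGPS and 2-mo WT overlap, with no young mouse above 0.157.

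Of 8 other genes of the family 6 were tested, where 43.2% of all genes passed in HGPS and 11.7% at 24 mo. In HGPS Ecm2 and Optc fell, as given above, and Tsku (tsukushi), a secreted inhibitor of BMP and Wnt signals, rose (0.77, adjusted p = 0.000146). At 24 mo Optc was also lower than at 2 mo (-0.74, adjusted p = 0.00634), and the other 5 did not pass.

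The enzymes that build chondroitin and dermatan sulfate chains, carried by Dcn and Bgn, were 22 tested of 23. In HGPS 4 rose and 3 fell, among them the sulfotransferases Chst15 (0.74, adjusted p = 0.00115) and Chst11 (0.69, adjusted p = 0.00279) upward and Chst14, the dermatan 4-O-sulfotransferase, downward (-0.44, adjusted p = 0.000207). At 24 mo 1 rose, Csgalnact1, which starts the chain (0.65, adjusted p = 0.000731), and 3 fell, among them Pxylp1, a phosphatase of the linker xylose (-0.73, adjusted p = 7.16e-06), and Chsy3, a chain polymerase (-0.41, adjusted p = 0.00822). Of 7 tested of 9 keratan sulfate enzymes, which act on Lum, Fmod, Omd and Ogn, 1 rose (B4galt1, 0.28, adjusted p = 0.0101) and 1 fell (B4galt4, -0.38, adjusted p = 0.00135) in HGPS. At 24 mo 3 fell and none rose, Chst2 (-0.68, adjusted p = 3.11e-05), Fut8 (-0.36, adjusted p = 0.00177) and B4galt1 (-0.29, adjusted p = 0.0288). The shares of all genes beside the counts of both lists are 43.2% in HGPS and 11.7% at 24 mo.

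Among 9 crosslinking enzymes and matrix partners, 3 rose and 1 fell in HGPS. Lox, the lysyl oxidase, went from 438 ± 54.7 to 791 ± 89.5 CPM (0.85, adjusted p = 6.19e-07), Loxl4 changed by 0.39 (adjusted p = 0.0142), and Tnxb, a tenascin that binds Dcn, fell (-0.96, adjusted p = 0.000735). At 24 mo 6 fell and 1 rose, with Eln (elastin, -1.03, adjusted p = 0.000273) and Lox (-0.94, adjusted p = 5.54e-07) downward and Vcan (versican, 0.84, adjusted p = 0.000211) upward. Of 4 tested of 5 genes that process procollagen and the propeptides of Dcn and Bgn, 0 passed in HGPS by edgeR and 1, Pcolce2, had an unadjusted p under 0.05. At 24 mo 3 fell, Pcolce2 (-1.24, adjusted p = 2.13e-08), Pcolce (-0.55, adjusted p = 0.000652) and Bmp1 (-0.44, adjusted p = 0.0015). Here too, 43.2% of all genes passed in HGPS and 11.7% at 24 mo.

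Of 6 tested of 7 growth factors that the family binds, 3 rose in HGPS, Ccn4, a secreted WNT1-inducible matricellular protein (0.85, adjusted p = 4.09e-05), Tgfb1 (0.73, adjusted p = 0.00319) and Tgfb2 (0.45, adjusted p = 0.00349), and 1 fell. At 24 mo Bmp4 fell (-0.60, adjusted p = 0.0425) and none rose. Of 13 receptors of these proteins 6 rose and 1 fell in HGPS. Kdr, the VEGF receptor that Dcn can block, changed by 1.25 (adjusted p = 0.0226), Met, the HGF receptor, by 1.02 (adjusted p = 0.000562), and Erbb4 by -0.90 (adjusted p = 0.000351). At 24 mo 0 of 13 passed in edgeR, with 1, Tlr4, at an unadjusted p under 0.05. Of 8 tested of 9 proteases that cut these proteins 3 rose and 1 fell in HGPS. Mmp2 changed by 0.79 (adjusted p = 1.38e-05), Mmp9 by -0.60 (adjusted p = 0.0459) and Mmp13 by 1.68 (adjusted p = 0.00654). Mmp13 was close to absent, with means of 0.178, 0.601 and 0.502 CPM in 2-mo WT, HGPS and 24-mo WT, and is limited by depth. At 24 mo Mmp3 rose (0.95, adjusted p = 0.000169), and Mmp2 (-0.60, adjusted p = 0.000749) and Htra1 (-0.21, adjusted p = 0.0484) fell. For growth factors, receptors and proteases alike, the shares of all genes passing were 43.2% in HGPS and 11.7% at 24 mo.

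Without 24-mo replicate 1 the counts with age shifted for 4 of these lists of partners. The chondroitin and dermatan sulfate enzymes then had 6 lower and 1 higher, and the keratan sulfate enzymes 2 lower, without B4galt1. Bmp4 no longer passed, and of the proteases Mmp3 and Mmp13 were higher and Mmp2 lower, without Htra1.

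Among mice of one group, some members varied together. Over 18 mice with the group means removed, 45 pairs of members were compared by permutation tests with 100000 resamples, two-sided, and Benjamini-Hochberg adjustment over the pairs. The pair with the highest coefficient was Omd and Ogn (Pearson r = 0.937, p = 5e-05, adjusted 0.00225; Spearman rho = 0.831, p = 0.0015, adjusted 0.0414), and r was 0.905 without the 2 mice farthest from the median. Dcn and Omd followed (r = 0.863, p = 0.00111, adjusted 0.0167; rho = 0.763, p = 0.00184, adjusted 0.0414), with r = 0.738 without 2 mice.

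3 further pairs passed by r and not by rho. Lum and Aspn had r = 0.807 (p = 0.0008, adjusted 0.0167) with rho = 0.752 (p = 0.00418, adjusted 0.0627), and r = 0.805 without 2 mice. Dcn and Ogn had r = 0.784 (p = 0.00252, adjusted 0.0244) with rho = 0.604 (p = 0.0256, adjusted 0.165), and r = 0.671 without 2 mice. Bgn and Prelp had r = 0.732 (p = 0.00271, adjusted 0.0244) with rho = 0.589 (p = 0.0141, adjusted 0.119), and r = 0.545 without 2 mice. Of the 45 coefficients 26 were positive. These are values of the same libraries, which also share their fat and fibroblast RNA. Within HGPS, Omd and Ogn also split by sample number, as given above.

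Outside the family, the tested genes whose levels followed each member most closely among mice of one group were, over 18 mice, Pdgfd (r = 0.943), Dnajc10 (0.933) and Gstm2 (0.922) for Ogn, and Rarres2 (0.953), Mfap1b (0.924) and again Gstm2 (0.919) for Omd. For Dcn they were Trappc6b (0.913), Impdh2 (0.906) and Dnajc18 (0.905), and for Bgn Glg1 (0.896), Myo1d (0.886) and Slc8a2 (0.884). C1qtnf3, a secreted C1q and TNF related protein, was among the 3 nearest for both Lum (0.842) and Aspn (0.792). Fmod was followed most by Lrrn1 (0.875) and Prelp by Setbp1 (0.937). These coefficients are the highest among all tested genes and are descriptive.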

How the data were processed

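Total RNA libraries (TruSeq stranded, Ribo-Zero) of 18 aortas were sequenced in pairs. The authors assigned reads to GENCODE M23 transcripts (GRCm38.p6) with salmon, summarised them per gene with tximport and deposited estimated counts as whole numbers, without normalization. The submitters' processing notes also name Bowtie 0.12.2, whose role is not given in the sources used here. Salmon splits shared reads between transcripts, so counts of overlapping genes are estimates. Gene positions and lengths came from GENCODE M21, which found 54107 of 54281 identifiers. No column lacked a sample.

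A gene entered the tests with 10 or more counts in 6 or more mice, and the tests were made with edgeR 4.0.16 (R 4.3.3; TMM, glmQLFit and glmQLFTest) in one fit of 3 groups with 15 residual degrees of freedom, with Benjamini-Hochberg adjustment over all 15210. All 10 members passed the filter, Chad only through HGPS mice. Standard errors are the log2 fold change over the square root of F. The scripts were tested on simulated counts. Each library is 1 mouse, and replicate pairs differed by more than sampling noise (chi-square per degree of freedom 8.09 to 92). Replicate numbers did not pair mice: same-numbered mice of different groups had correlations of -0.162 to 0.172.

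The members, the lists of partner genes (9) and marker genes (14) and the tests were chosen with earlier results of these data known. All members are given, and for each list up to 3 genes with the largest change at an adjusted p under 0.05, the nearest coding neighbours, and the 3 genes of closest pattern; Col2a1, Col1a1, Tlr4, Pcolce2 in HGPS and Mmp13 at 24 mo fall outside this and were chosen with their values known. Alternatives were DESeq2 1.42.0, other scalings, filters and lengths, a replicate block, 2 groups alone, marker scores as covariates and each mouse left out.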

Additional observations from a re-analysis of the deposited data

Results flagged for a closer look

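Of 30 groups of 6 mice (10 genes in 3 groups), 4 held a mouse whose gap to its nearest neighbour, divided by the range of the group, was above Dixon's critical value of 0.625. Chance gives about 1 in 20 groups.

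Fmod in HGPS replicate 3 was at 104.9 CPM, with the next mouse at 150.5 CPM (gap over range 0.783). Chad in 24-mo WT replicate 2 was at 0.5022 CPM, with the next at 0.2698 CPM (0.732), which stands for 7 and 5 counts. Ogn in 24-mo WT replicate 1 was at 1246 CPM, with the next at 1710 CPM (0.667). Omd in the same mouse was at 15.18 CPM, with the next at 26.27 CPM (0.627). Ogn and Omd are neighbours on chromosome 13, and this mouse also had the lowest correlation with its group (0.967) and the most brown fat marker RNA of the 24-mo mice (379.7 CPM, with the others at 119.2 to 213.2 CPM). What part these had in its low values was not tested.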

How the results depend on the processing

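None of the fold changes of a called gene turned its direction under those of the 28 alternatives that could be fitted for it. For HGPS against 2-mo WT, the 3 genes at the cut-offs of the study became 1 with a replicate block (Ogn), 1 with a cartilage score (Chad), and 0 with brown fat and skeletal muscle scores or a fibroblast score as covariates, and ran from 0 to 3 when 1 mouse was left out, with 0 without HGPS replicate 1 and 1 (Aspn) without HGPS replicate 2 or 3 or 2-mo WT replicate 2, 3 or 6. The 6 genes at an adjusted p under 0.05 became 1 with the fat and muscle scores (Aspn), 0 with the fibroblast score and 8 with DESeq2 or the 2 groups alone (Bgn and Epyc added), a range of 0 to 8. For 24-mo against 2-mo WT, the 0 genes became 1 in a fit of the 2 groups alone (Omd) and ran from 0 to 1 with a mouse left out (Dcn without 24-mo WT replicate 1). For HGPS against 24-mo WT, the 2 genes at the cut-offs became 1 with the block or the 2 groups alone (Dcn) and 0 with the fat and muscle scores, and ran from 1 to 3 with a mouse left out, with 1 without HGPS replicate 1 or 6 or 24-mo WT replicate 4. The 5 at 0.05 became 2 with the fat and muscle scores (Aspn and Dcn), in a range of 2 to 6. The cause of these shifts was not tested, except that Chad leaves the test with any HGPS mouse. The replicate block, on numbers that do not pair the mice, kept the same 6 genes at 0.05 in HGPS against 2-mo WT. Over all genes, calls at the cut-offs in that comparison went from 1445 to 105 with the fat and muscle scores and to 46 with the fibroblast score. Chad and Epyc, at 67 counts or fewer in every mouse, are limited by depth.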
